A study of Mus musculus with 12 samples.

Results

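The 9 genes described here encode matricellular proteins or other proteins that activated fibroblasts secrete: Postn, Tnc, Thbs1, Thbs2, Thbs4, Cilp, Cthrc1, Spp1 and Sparc. They were chosen by name, with earlier results of these data known, and their rows were read by symbol from the deposited tables. All 9 were found among the 16246 genes that the 4 tables list in all. Cthrc1 is listed in 3 of the 4 tables and is not listed in the table that compares the diets after sham surgery, so that comparison has 8 members.

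PolyA RNA was sequenced from 12 samples of heart of male C57Bl/6J mice aged 12 weeks, 3 samples in each of 4 groups: BCAA-free TAC, control diet TAC, BCAA-free sham and control diet sham. The BCAA-free diet lacked the branched-chain amino acids leucine, isoleucine and valine, and the control diet held them at the concentration of ordinary chow with all other essential amino acids. Each diet began 4 days before surgery and was kept up for the 2 weeks from surgery to sampling. As background, transverse aortic constriction (TAC) narrows the aortic arch so that the left ventricle ejects against a raised pressure, and sham mice had the operation without the constriction. All 4 groups are mice of the same strain, sex and age, with no genetic change given in the labels. Whether each RNA came from 1 heart or from pooled hearts, from which chamber, and how tight the constriction was, is not stated in the labels. The p-values therefore measure only how these samples vary, and that variation may be technical.

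Matricellular proteins are secreted into the extracellular matrix, where they bind cells, growth factors, proteases and collagen without forming the load-bearing fibres themselves. Many of them are scarce in the healthy adult heart, though the RNA of Sparc was high in sham hearts here too. After injury or overload many are made again, mainly by fibroblasts that have turned into activated, collagen-producing cells. Macrophages are a further source of osteopontin. Matricellular proteins signal to cells through integrins and other surface receptors, and some of them set free or bind the fibrogenic cytokine TGF-beta.

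On GRCm38 the genes lie apart from each other on 9 chromosomes: Postn on chromosome 3 from 54361109 to 54391037, Tnc on chromosome 4 from 63959785 to 64047015, Thbs1 on chromosome 2 from 118111876 to 118127133, Thbs2 on chromosome 17 from 14665500 to 14694235 and Thbs4 on chromosome 13 from 92751590 to 92794818. Cilp spans positions 65265180 to 65280605 of chromosome 9, Cthrc1 spans 39076932 to 39087121 of chromosome 15, Spp1 spans 104435118 to 104441050 of chromosome 5 and Sparc spans 55394500 to 55423183 of chromosome 11. Whether reads were counted by strand is not given in the sources used here, so reads of overlapping genes could not be told apart. Exons of Tnc share 176 bases with 8030451A03Rik on the other strand, those of Thbs1 share 208 bases with Gm29233 on the other strand, and those of Spp1 share 309 bases with Gm42793 on the same strand.

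Promoters are shown for the gene with the largest response among those with an entry (Thbs4), for periostin and tenascin C, which responded alongside it, and for Thbs2, the member with the smallest difference in the comparisons that involve TAC. Each line gives the 250 bases before the transcription start from RefSeq, on GRCm38.p6 and read along the gene's own strand, with matches to the motifs named after them in capitals; a match on the other strand appears as its reverse complement. The windows are chr13:92794819-92795068 (minus strand) for Thbs4, chr3:54360857-54361106 (plus strand) for Postn, chr4:64047016-64047265 (minus strand) for Tnc and chr17:14694263-14694512 (minus strand) for Thbs2.
Thbs4: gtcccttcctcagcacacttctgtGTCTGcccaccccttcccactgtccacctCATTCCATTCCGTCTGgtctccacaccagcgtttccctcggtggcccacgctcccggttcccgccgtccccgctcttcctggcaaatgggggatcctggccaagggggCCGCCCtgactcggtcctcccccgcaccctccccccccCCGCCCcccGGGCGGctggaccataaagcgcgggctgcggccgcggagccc
Postn: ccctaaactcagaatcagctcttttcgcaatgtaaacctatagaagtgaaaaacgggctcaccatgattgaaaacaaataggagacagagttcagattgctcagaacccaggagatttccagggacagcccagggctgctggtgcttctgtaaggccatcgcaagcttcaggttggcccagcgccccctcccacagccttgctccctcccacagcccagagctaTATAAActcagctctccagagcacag
Tnc: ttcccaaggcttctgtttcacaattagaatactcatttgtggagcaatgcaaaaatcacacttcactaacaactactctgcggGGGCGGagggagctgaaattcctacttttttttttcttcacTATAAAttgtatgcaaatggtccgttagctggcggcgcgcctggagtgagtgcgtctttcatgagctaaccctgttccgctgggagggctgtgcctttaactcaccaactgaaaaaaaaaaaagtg
Thbs2: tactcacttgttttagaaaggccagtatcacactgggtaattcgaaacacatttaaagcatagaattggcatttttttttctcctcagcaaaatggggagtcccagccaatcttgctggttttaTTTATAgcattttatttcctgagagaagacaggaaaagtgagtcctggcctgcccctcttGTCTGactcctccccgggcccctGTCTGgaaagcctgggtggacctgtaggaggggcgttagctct

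Of the 9 genes, 7 have a RefSeq promoter window (Thbs1 and Cthrc1 have none), and the start nearest the annotated gene end was used where a gene has 2. The start of Sparc used by RefSeq lies 3103 bases inside the gene as annotated by GENCODE. Short motifs of factors that act in fibroblasts, and those of core promoters, were searched on both strands as exact letters. The letters TATAAA, 1 form of the TATA box, were found in 4 of the 7 windows, against 12.4% of all 32851 windows of the same length. The 4 are Postn, Tnc, Thbs2 and Spp1. Other forms were not searched, so these are not counts of TATA boxes: Cilp is not among the 4 but holds TATATAAG close to its start. In Postn the TATAAA match lies 26 to 21 bases before the start. In Tnc it lies 126 to 121 bases before it. The match in Thbs2 lies at that same distance but on the other strand, and that in Spp1 lies 211 to 206 bases before the start. The motif of TEAD factors, searched as GGAATG, was found in 1 window, that of Thbs4, as a pair of matches that share a base, 197 to 187 bases before the start, against 12.6% of all windows. The letters CAGAC, bound by SMAD factors, were found in 4 of 7 windows (42.2% of all), those of Thbs2, Thbs4, Spp1 and Sparc. In Thbs4 a SMAD match directly follows the TEAD pair, 186 to 182 bases before the start. The RUNX motif, searched as TGTGGT, was in 2 windows, Cilp and Spp1 (14% of all). The GC box, searched as GGGCGG, was in 2 windows, those of Tnc and Thbs4 (32.7% of all). The AP-1 motif, searched as TGANTCA, was in none of the 7 windows and in 6.75% of all windows. The windows' GC content was between 43.6% in Spp1 and 70.8% in Thbs4.

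Depth, as whole reads recovered from the deposited values, was 13848953 to 52059546 per library. Of the overload markers Nppa, Nppb, Myh7, Acta1 and Ankrd1, 2 rose after TAC on the BCAA-free diet (Acta1 and Myh7) and 4 rose on the control diet (all but Nppa). In the control diet TAC group replicate 2 stood apart, with 86226 normalized counts of Nppa, which encodes atrial natriuretic peptide, against 22999 and 22651 in replicates 1 and 3. The 12 cardiomyocyte markers were all listed and summed to 112221 to 113207 RPM (reads of a gene per 1000000 reads) in BCAA-free TAC, 74040 to 91716 in control diet TAC, 100777 to 111110 in BCAA-free sham and 96825 to 108358 in control diet sham hearts, so the samples hold heart muscle as labelled. Of 9 lymphocyte markers, 3 were listed at levels high enough to test.

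Per length of exon, the members spanned a wide range of levels. The RNA is of heart tissue, in which fewer cells of a type and less RNA per cell cannot be told apart. Values here are RPM divided by the kilobases of exon, after the 12 libraries were scaled together by TMM, as mean ± SD with n = 3 per group. Sparc, which encodes the collagen-binding glycoprotein osteonectin, was the highest in all 4 groups. It averaged 66.3 ± 9.6 in BCAA-free TAC, 233 ± 114 in control diet TAC, 43.3 ± 3.12 in BCAA-free sham and 72.9 ± 12.6 in control diet sham hearts. Sparc gave 46% to 74.4% of the reads of the 9 genes in a library, so a sum over the 9 mostly follows Sparc. Postn, which encodes periostin, averaged 6.03 ± 2.36 in BCAA-free TAC, 43.9 ± 38.6 in control diet TAC, 3.22 ± 0.541 in BCAA-free sham and 4.11 ± 0.66 in control diet sham hearts. At the low end of the range in sham hearts stood Tnc, at 0.088 ± 0.00691 in BCAA-free sham and 0.126 ± 0.018 in control diet sham hearts, and Cthrc1, at 0.138 ± 0.0436 and 0.123 ± 0.11 in the same groups. In control diet sham libraries Cthrc1 rested on 2, 9 and 3 reads, so its folds against that group are set by very few reads.

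For 8 of the 9 genes, all but Thbs2, control diet TAC hearts had the highest mean level, and none of their libraries overlapped those of the group next in order. For Thbs4 the 4 groups were separate from each other in every step: 19.7 RPM in BCAA-free TAC, 104 in control diet TAC, 7.62 in BCAA-free sham and 5.88 in control diet sham hearts. For Cilp and Spp1 BCAA-free TAC came next without overlap with the sham groups, whose libraries overlapped with each other. Cthrc1 had the same order, but BCAA-free TAC was separate from BCAA-free sham only and overlapped with control diet sham. For Thbs1 the 3 groups other than control diet TAC overlapped with their neighbours in the order, and for Postn BCAA-free TAC overlapped with control diet sham. For Tnc BCAA-free TAC overlapped with control diet sham, and control diet sham lay above BCAA-free sham without overlap. Sparc had control diet sham at 276 and BCAA-free TAC at 251 RPM, which overlapped, with BCAA-free sham below both at 164. Thbs2 differed from all of these: BCAA-free TAC (32.7), BCAA-free sham (32.5) and control diet TAC (32) overlapped, and control diet sham stood below them at 21 RPM.

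**Figure D1:**
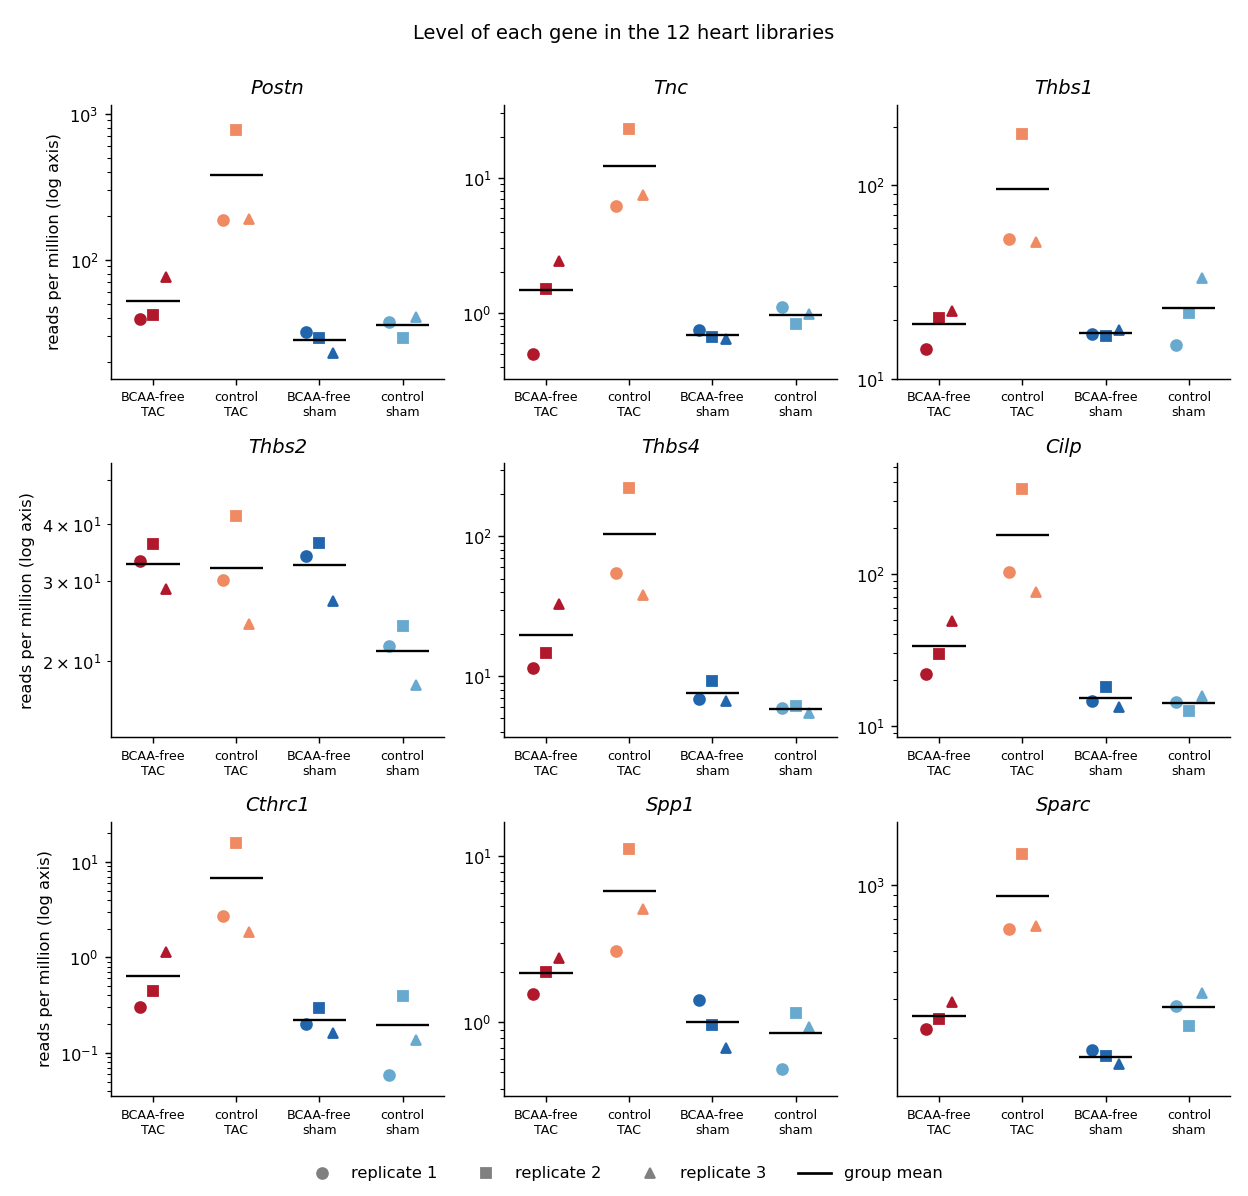
Level of each gene in RPM (log axis, a separate scale per gene) in the 12 libraries, with 1 point per library, its shape giving the replicate number, and a line at each group mean. Control diet TAC lies above the other 3 groups in 8 panels, Thbs2 being the exception, with replicate 2 highest in all 9.

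The first comparison, of TAC with sham hearts in mice fed the control diet, asked how the constriction changed these genes when the food held branched-chain amino acids. Of the 9 genes 7 rose, none fell, and all 9 had every TAC library above every sham library. The median log2 fold change of the 9 was 3.08, against a median near zero (-0.0047) over all genes tested. A gene was called changed at an adjusted p under 0.05 in limma, with Benjamini-Hochberg adjustment over all 15397 genes tested. By that rule 2.95% of tested genes were higher and 1.09% lower in TAC hearts. Libraries did not overlap, with TAC above, for 17.8% of genes. Scaling to library totals alone called 1267 genes higher and 149 lower in place of 454 and 168, and shifted the median of all genes by 0.15. Values below are the deposited normalized counts of replicates 1, 2 and 3, and log2 fold changes are on the log2(value + 1) scale, ± SE.

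Periostin and tenascin C rose together. Periostin binds integrins and aids collagen cross-linking, and Postn had 5586, 22994 and 5654 normalized counts in control diet TAC hearts, against 1120.1, 863 and 1238 in control diet sham hearts. The lowest TAC library was thus well above the highest sham library, and the log2 fold change was 3.08 ± 0.54 (adjusted p = 0.0421). Tenascin C is a large adhesion-modulating glycoprotein of developing and wounded tissue. Tnc had 183, 679 and 223 normalized counts in TAC hearts, against 33.1, 24.5 and 30.3 in sham hearts. Its log2 fold change of 3.34 ± 0.43 had the smallest adjusted p of the 9 genes (0.0265).

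The thrombospondins did not respond alike. Thrombospondin 4, known in mouse heart for its induction by overload and for a part in the folding of secreted proteins, had 1623, 6601 and 1136 normalized counts of Thbs4 in TAC hearts, against 178, 182 and 169 in sham hearts. The sham libraries were close to each other and far below TAC, with a log2 fold change of 3.70 ± 0.60 (adjusted p = 0.0397). Thrombospondin 1, an activator of latent TGF-beta, had 1574, 5483 and 1518 normalized counts of Thbs1 in TAC hearts, against 443, 640.5 and 1021 in sham hearts. Its log2 fold change was 1.83 ± 0.54, and it did not pass over all genes (adjusted p = 0.0893). Thrombospondin 2 binds matrix proteases and regulates collagen fibre assembly, and Thbs2 had 895, 1245 and 724 normalized counts in TAC hearts, against 641, 702 and 545 in sham hearts. The groups were separated by a narrow margin, and the log2 fold change of 0.57 ± 0.19 did not pass (adjusted p = 0.0964).

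Of the products of activated fibroblasts, Cthrc1 had the largest fitted fold change of the 9 and ranked 2 among all 15397 genes at a pseudocount of 1. Cthrc1 encodes a secreted glycoprotein found in injured arteries and in activated fibroblasts of healing heart muscle. It had 80.3, 471 and 55.2 normalized counts in TAC hearts, against 1.74, 11.6 and 4.13 in sham hearts, a log2 fold change of 4.52 ± 0.82 (adjusted p = 0.0397). With a pseudocount of 10 its log2 fold change was 3.21, below the 3.64 of Thbs4 and the 3.27 of Cilp, and its call was lost (adjusted p = 0.0505), as it was by edgeR (adjusted p = 0.0604) and limma-voom (adjusted p = 0.133). Cilp, which encodes a cartilage-type matrix protein that binds TGF-beta, had 3050.0, 10668 and 2258 normalized counts in TAC hearts, against 432, 369 and 484 in sham hearts. The log2 fold change of Cilp was 3.30 ± 0.54 (adjusted p = 0.0397), rank 13 of all genes.

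Osteopontin and osteonectin rose as well. Osteopontin is a phosphoprotein that binds integrins and CD44, and Spp1 had 79.2, 327 and 143 normalized counts in TAC hearts, against 15.7, 33.5 and 28.9 in sham hearts (log2 fold change 2.59 ± 0.49, adjusted p = 0.0397). Sparc had 18648, 41244 and 19328 normalized counts in TAC hearts, against 8337, 6670.0 and 9880.4 in sham hearts. Its log2 fold change of 1.59 ± 0.29 (adjusted p = 0.0397) was the smallest of the 7 that rose, on the highest level. In the authors' deposited table all 9 genes were called higher in TAC hearts, as were 8.49% of the genes with an adjusted p there.

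Replicate 2 of control diet TAC was the highest library for all 9 genes, at 1.39 times (Thbs2) to 5.87 times (Cthrc1) the next library. Without it the log2 fold changes were 2.40 for Postn, 2.76 for Tnc, 2.94 for Thbs4, 2.62 for Cilp, 3.59 for Cthrc1, 2.06 for Spp1 and 1.21 for Sparc, and these 7 were still the ones called (adjusted p between 6.53e-04 and 0.0497). Over all 15293 genes tested in that fit, 161 were called higher and 34 lower. Without control diet TAC replicate 3, or without any of the 3 control diet sham libraries, none of the 9 passed over all genes by limma. All 9 had an unadjusted p under 0.05 without control diet TAC replicate 3 or control diet sham replicate 1 or 2, as did 8 without control diet sham replicate 3. Those fits called 0, 2, 2 and 98 genes of all tested at an adjusted p under 0.05. At an unadjusted p under 0.05 they held 3370 of 15351, 3546 of 15387, 3801 of 15384 and 4443 of 15362 genes, in either direction.

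In mice fed the BCAA-free diet, the comparison of TAC with sham hearts asked what the constriction did when the food lacked these amino acids. Sparc alone of the 9 rose, all 9 fold changes were above zero, and 6 genes had every TAC library above every sham library. The median log2 fold change of the 9 was 0.85 (0.0014 over all genes). Over all 15670 genes tested 3.34% were called higher and 2.89% lower, and 14.6% had every TAC library above every sham library. The 6 non-overlapping genes were Postn, Thbs4, Cilp, Cthrc1, Spp1 and Sparc.

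Sparc had 7706, 8597 and 10174 normalized counts in BCAA-free TAC hearts, against 6186, 5798 and 5342 in BCAA-free sham hearts, a log2 fold change of 0.60 ± 0.10 (adjusted p = 0.0124). Its libraries lay close together in each group. Spp1 had 52.3, 70.7 and 84.7 normalized counts in TAC hearts, against 48.2, 33.8 and 24.7 in sham hearts. The lowest TAC library of Spp1 was barely above the highest sham library, and the log2 fold change of 0.97 ± 0.28 just missed the threshold (adjusted p = 0.0599).

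Postn had 1379, 1478 and 2665 normalized counts in BCAA-free TAC hearts, against 1128, 1031 and 802 in BCAA-free sham hearts (0.85 ± 0.29, adjusted p = 0.16). Thbs4 had 406, 519 and 1153 normalized counts in TAC hearts, against 244, 325 and 236 in sham hearts (1.23 ± 0.42, adjusted p = 0.163). In both genes TAC replicate 3 stood well above the other TAC libraries. Cilp had 774, 1046 and 1715 normalized counts in TAC hearts, against 514, 640.4 and 474 in sham hearts (1.05 ± 0.31, adjusted p = 0.11). Cthrc1 had 10.7, 15.6 and 40 normalized counts in TAC hearts, against 7.09, 10.4 and 5.64 in sham hearts (1.23 ± 0.48, adjusted p = 0.14). Its sham values rest on 10, 4 and 8 reads. The highest sham library of Cthrc1 nearly reached the lowest TAC library.

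Tnc, Thbs1 and Thbs2 overlapped between TAC and sham on this diet. Tnc had 17.4, 53.4 and 84.7 normalized counts in TAC hearts, against 26.2, 23.4 and 22.6 in sham hearts, so that replicate 1 lay below all sham libraries (0.82 ± 0.48, adjusted p = 0.337). Thbs1 had 499, 726 and 785 normalized counts in TAC hearts, against 597, 583 and 628 in sham hearts (0.13 ± 0.15, adjusted p = 0.66). Thbs2 had 1165, 1273 and 1009 normalized counts in TAC hearts, against 1201, 1278 and 956 in sham hearts (0.01 ± 0.12, adjusted p = 0.973), and its sign turned with scaling to library totals alone. For both thrombospondins the means of the groups were nearly equal.

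Replicate 3 of BCAA-free TAC was the highest library of its group for 8 of the 9 genes and replicate 1 the lowest for 8, Thbs2 being the exception in each case. No gene of the 9 passed without BCAA-free TAC replicate 3, where the log2 fold change of Sparc was 0.50 (adjusted p = 0.0504), or without BCAA-free sham replicate 2, where it was 0.61 (adjusted p = 0.0553). Without BCAA-free TAC replicate 1, Tnc (1.45, adjusted p = 0.0272) and Cilp (1.31, adjusted p = 0.0352) passed along with Sparc. Over all genes 41 were called higher and 7 lower of 15634 without BCAA-free TAC replicate 3. Without BCAA-free sham replicate 2 these were 93 and 15 of 15651, and without BCAA-free TAC replicate 1 they were 421 and 361 of 15668. On this diet 4 of the 9 were called higher in TAC hearts in the authors' deposited table (Sparc, Cilp, Thbs4 and Spp1), as were 5.91% of the genes with an adjusted p, and Tnc and Cthrc1 were given no adjusted p there.

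**Figure D2:**
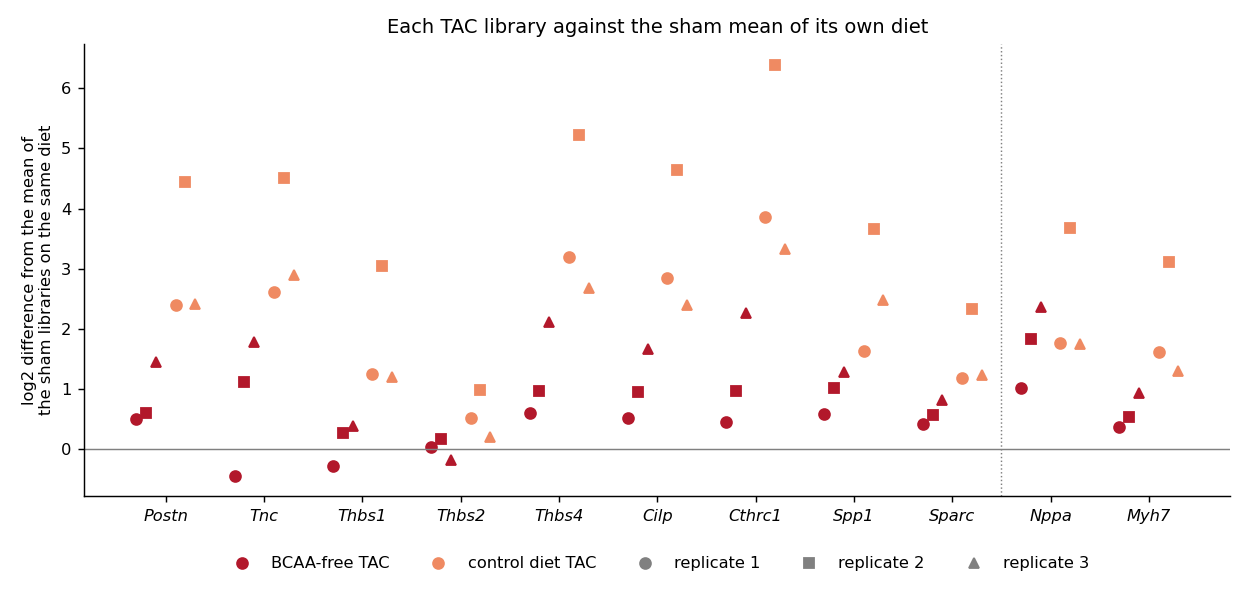
Log2 difference of each TAC library from the mean of the sham libraries on the same diet (vertical axis, zero at the sham mean) for the 9 genes and, right of the dotted line, for the overload markers Nppa and Myh7. Color gives the diet and shape the replicate number. Control diet TAC replicate 2 is the highest point for every gene shown, and BCAA-free TAC replicate 3 is the highest of its group for all but Thbs2.

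BCAA-free TAC hearts were then compared directly with control diet TAC hearts, which asks how the diet changed these genes under the same operation. Of the 9 genes 5 fell (Postn, Tnc, Thbs1, Cthrc1 and Sparc), none rose, and 8 had every BCAA-free TAC library below every control diet TAC library. The median log2 fold change of the 9 was -2.11 (0.00026 over all genes). Changes were widespread in this comparison: 17.7% of 15872 genes were called lower and 16.5% higher, and 25.6% had every BCAA-free library below every control diet library. With scaling to library totals alone 3800 genes were called lower and 1461 higher, in place of 2817 and 2618, and the median of all genes shifted by -0.13.

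Tnc had the largest fall, with 18.1, 55.5 and 87.9 normalized counts in BCAA-free TAC hearts, against 223, 825 and 272 in control diet TAC hearts (-3.02 ± 0.73, adjusted p = 0.0255). Cthrc1 had 11, 16.2 and 41.5 normalized counts in BCAA-free TAC hearts, against 98.3, 572 and 67.2 in control diet TAC hearts (-2.93 ± 0.89, adjusted p = 0.0468). In both genes the highest BCAA-free library was clearly below the lowest control diet library. Postn had 1429, 1535 and 2763 normalized counts in BCAA-free TAC hearts, against 6837, 27947 and 6886 in control diet TAC hearts (-2.59 ± 0.64, adjusted p = 0.0315).

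Thbs1 had 517, 754 and 813 normalized counts in BCAA-free TAC hearts, against 1926, 6664 and 1848 in control diet TAC hearts (-2.07 ± 0.55, adjusted p = 0.0381). Sparc had 7985, 8926 and 10548 normalized counts in BCAA-free TAC hearts, against 22821, 50129 and 23541 in control diet TAC hearts. Sparc had the smallest SE of the 5 (-1.72 ± 0.31, adjusted p = 0.00859), and its BCAA-free libraries spread less than its control diet ones.

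Cilp (-2.14 ± 0.67, adjusted p = 0.0615), Thbs4 (-2.11 ± 0.79, adjusted p = 0.097) and Spp1 (-1.41 ± 0.48, adjusted p = 0.0599) did not pass. Thbs4 had 420.5, 539 and 1195 normalized counts in BCAA-free TAC hearts, against 1987, 8023 and 1383 in control diet TAC hearts, with the nearest libraries of the groups close to each other. Thbs2 was the only member with overlapping groups, at 1207, 1322 and 1046 normalized counts in BCAA-free TAC hearts, against 1096, 1513 and 881 in control diet TAC hearts. Its log2 fold change was 0.06 ± 0.19 (adjusted p = 0.816), and the sign turned with scaling to library totals alone. All but Thbs2 were called lower in the authors' deposited table, as were 18.4% of the genes with an adjusted p there.

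Without control diet TAC replicate 2 the log2 fold changes were -1.91 for Postn, -2.44 for Tnc, -1.47 for Thbs1, -1.99 for Cthrc1 and -1.35 for Sparc. Tnc then missed the threshold (adjusted p = 0.0726) and Spp1 passed it (-0.87, adjusted p = 0.0349), so 5 genes were called. Without control diet TAC replicate 1 the 3 called were Tnc, Spp1 and Sparc. Only Tnc and Sparc passed without BCAA-free TAC replicate 1 or replicate 2, or after trends with GC content and length were removed from each library. Over all genes, 2691 of 15793 were called lower without control diet TAC replicate 2 and 2698 of 15832 without replicate 1. The number lower was 1908 of 15825 and 1934 of 15839 without BCAA-free TAC replicate 1 and replicate 2. With the trends removed it was 1928 of 15839.

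**Figure D3:**
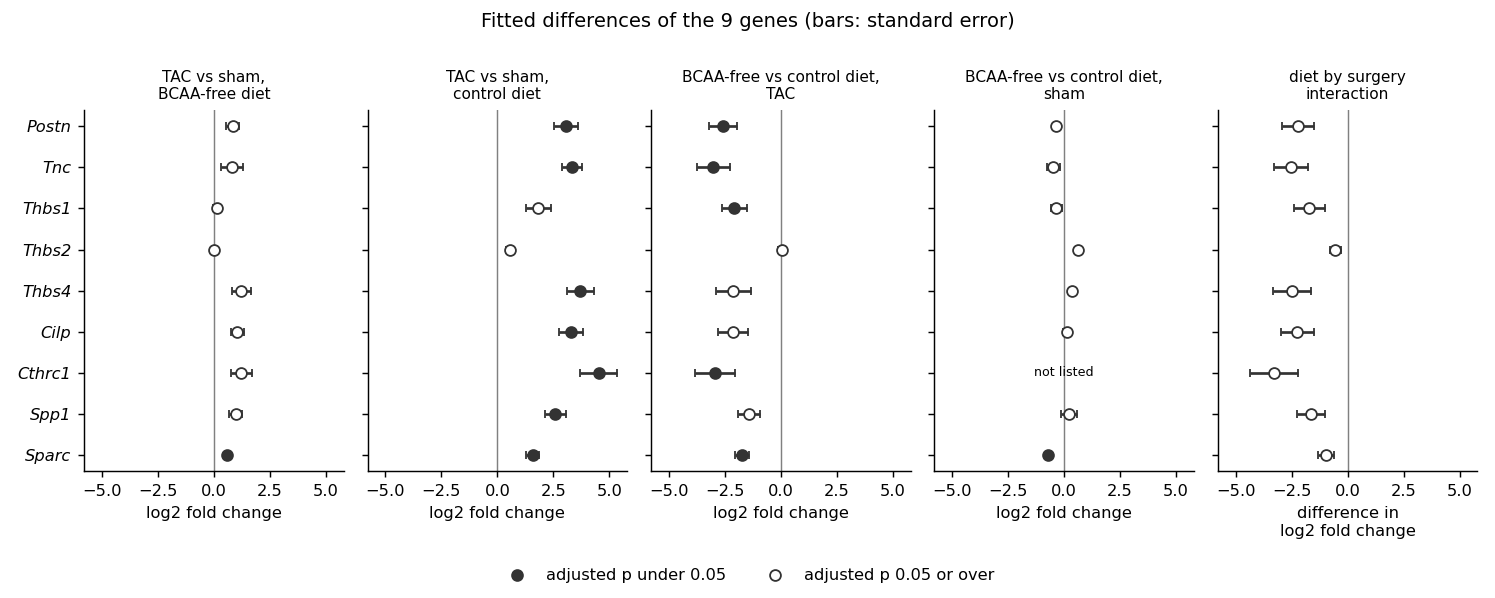
Fitted log2 differences (horizontal axis) with standard error bars for the 9 genes in each comparison, filled where the adjusted p was under 0.05. Filled points stand at 7 genes for TAC against sham in mice fed the control diet and at 1 in mice fed the BCAA-free diet, at 5 for the diet after TAC, at 1 for the diet after sham and at none for the interaction.

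The diets were also compared without constriction. Of the 8 listed for sham hearts, Sparc fell on the BCAA-free diet and none rose, with 4 fold changes on each side of zero and a median of -0.12 (-0.00045 over all genes). Over all 15217 genes tested 0.375% were called lower and 0.25% higher. An unadjusted p under 0.05 was found for 4 of the 8 and for 2525 of all genes. Tnc and Sparc had every BCAA-free library below every control diet library (11.3% of all genes), and Thbs2 and Thbs4 had every one above (11.7% of all genes).

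Sparc had 5080.5, 4759.9 and 4388 normalized counts in BCAA-free sham hearts, against 8057, 6461 and 9460.5 in control diet sham hearts (-0.74 ± 0.14, adjusted p = 0.0428). The BCAA-free libraries spread less than the control diet ones. Thbs2 had 987, 1049 and 785 normalized counts in BCAA-free sham hearts, against 619.8, 680.3 and 522 in control diet sham hearts, so it lay in the other direction (0.63 ± 0.14), and it missed the threshold (adjusted p = 0.0619). It passed by DESeq2 on the recovered reads (adjusted p = 0.00576), in the authors' deposited table (log2 fold change 0.62, adjusted p = 0.00593) and without control diet sham replicate 2 or replicate 3.

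Sparc lost its call without control diet sham replicate 1 or any of the BCAA-free sham libraries, at adjusted p between 0.102 and 0.205, while its log2 fold change stayed between -0.79 and -0.68. The other members gave -0.35 ± 0.16 for Postn, -0.48 ± 0.28 for Tnc, -0.37 ± 0.25 for Thbs1, 0.36 ± 0.16 for Thbs4, 0.11 ± 0.15 for Cilp and 0.23 ± 0.36 for Spp1, with adjusted p between 0.294 and 0.793.

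Whether the response to TAC itself differed between the diets was tested as an interaction over the 12 libraries, on the 15195 genes tested of the 15215 found in both tables. All 9 estimates were negative, meaning a smaller log2 fold change after TAC on the BCAA-free diet, with a median of -2.23 (-0.030 over all genes), and none passed by limma over all genes. At an unadjusted p under 0.05 all 9 were lower, as were 14.1% of all genes. At an adjusted p under 0.05, 3.73% of genes were lower and 4.92% higher. Scaling to library totals alone made the called genes 1462 lower and 386 higher, in place of 567 and 747, and shifted the median of all genes to -0.20.

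Tnc came nearest to the threshold (-2.52 ± 0.75, adjusted p = 0.0571) and Thbs2 was farthest from it (-0.56 ± 0.25, adjusted p = 0.155). At a pseudocount of 1 Cthrc1 had the largest estimate, -3.29 ± 1.08 (adjusted p = 0.075), ranking 15194 of the 15195 genes from high to low. Its place rests on the few reads of Cthrc1 in sham hearts, and other settings on all 12 libraries gave estimates as small as -2.45. The estimates were -2.23 ± 0.72 for Postn (adjusted p = 0.0854), -2.25 ± 0.73 for Cilp (adjusted p = 0.0869) and -2.47 ± 0.85 for Thbs4 (adjusted p = 0.1). They were -0.98 ± 0.36 for Sparc (adjusted p = 0.106), -1.63 ± 0.62 for Spp1 (adjusted p = 0.11) and -1.71 ± 0.68 for Thbs1 (adjusted p = 0.14). Cthrc1 also had the largest error of the 9 and Thbs2 the smallest.

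By other tools on the recovered reads the number of members passing the interaction test was 5 by DESeq2, 0 by edgeR's quasi-likelihood test and 0 by limma-voom. These tools called 6.38%, 3.72% and 3.4% of all genes lower. At an unadjusted p under 0.05 the counts were 9 by DESeq2, 8 by edgeR and 5 by limma-voom, against 14.3%, 14.1% and 13.8% of all genes lower. Without control diet TAC replicate 2, 2 members passed, Postn (-1.56, adjusted p = 0.0354) and Cilp (-1.57, adjusted p = 0.0426). All 9 estimates then lay nearer to zero, at -0.61 for Sparc, -1.10 for Thbs1, -0.35 for Thbs2, -1.09 for Spp1, -1.94 for Tnc, -1.71 for Thbs4 and -2.36 for Cthrc1 (adjusted p between 0.0681 and 0.306). Without control diet TAC replicate 1, Tnc (-2.88, adjusted p = 0.0330) and Spp1 (-2.11, adjusted p = 0.0277) passed, and without control diet sham replicate 2, Cthrc1 alone did (-3.88, adjusted p = 0.0472). Under all the scalings, tests and omissions run, each of the 9 estimates stayed negative.

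Summed over the 9 genes, RPM of the listed reads were 331, 391 and 486 in BCAA-free TAC, 1103, 3350 and 1092 in control diet TAC, 285, 269.8 and 240.1 in BCAA-free sham and 370, 308 and 418 in control diet sham hearts. Replicates 1 and 2 of BCAA-free TAC lay within the range of control diet sham and replicate 3 above it, and every control diet TAC library lay above all other groups.

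Beside the members, the overload markers were read in the same TAC libraries. Nppa had 16211, 28291 and 41234 normalized counts in BCAA-free TAC replicates 1, 2 and 3, the order found in 8 of the 9 genes. Myh7, the beta-myosin heavy chain, had 37643, 42546 and 55723 in the same libraries. The other 3 overload markers had another order there, with replicate 2 lowest: Nppb at 6493, Acta1 at 11724 and Ankrd1 at 48633 normalized counts, against 7379, 13887 and 53186 in replicate 1. In control diet TAC, Myh7 had 50308, 141282 and 40200.4 normalized counts, with replicate 2 highest, as for the other 4 markers and all 9 genes. The pressure reached in each mouse is not given in the sources used here, and its part in the differences was not tested.

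To describe how alike the members were, each gene's log2 values were centred on the sham mean of its diet and correlated over the 12 libraries with the mean of the other 8. The libraries share table scaling and the split into TAC and sham, so the coefficients are a description. Pearson's r was 0.99 for Cilp, Postn and Thbs4 and 0.93 to 0.97 for Cthrc1, Sparc, Tnc, Spp1 and Thbs1. Thbs2 was lowest, at 0.81, and at 0.53 without control diet TAC replicate 2.

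Of 10729 other annotated genes whose mean value was 100 or more, the 8 closest to the mean of the 9 were Frzb, Actn1, Col8a1, Fibin, Mmp2, Bgn, Cercam and Myh7. Their r over 12 libraries was 0.988 to 0.993, and 0.971 to 0.984 without control diet TAC replicate 2. They were picked for likeness in these same libraries, so a rise after TAC on the control diet followed from the choice. Their values are a description and no separate support. All 8 rose after TAC on the control diet, Myh7 alone rose on the BCAA-free diet, and 2 of the 8, Col8a1 and Mmp2, fell with the diet after TAC. Frzb, a secreted antagonist of Wnt ligands, was first. It rose after TAC on the control diet (2.13 ± 0.40, adjusted p = 0.0397), and its log2 fold change was 0.50 ± 0.18 on the BCAA-free diet (adjusted p = 0.108) and -1.53 ± 0.49 for the diet after TAC (adjusted p = 0.0585). Col8a1, a short-chain collagen gene, rose on the control diet (2.73 ± 0.42, adjusted p = 0.0377) and fell with the diet after TAC (-2.47 ± 0.51, adjusted p = 0.0187). Mmp2, which encodes a gelatin-degrading protease, rose on the control diet (1.57 ± 0.26, adjusted p = 0.0369) and fell with the diet after TAC (-1.64 ± 0.32, adjusted p = 0.0113). For the diet after TAC the other 5 gave -1.07 ± 0.36 for Bgn, -0.90 ± 0.34 for Fibin, -0.79 ± 0.48 for Myh7, -0.72 ± 0.35 for Cercam and -0.32 ± 0.23 for Actn1, with adjusted p between 0.0621 and 0.317.

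Further genes were read from lists of related proteins and of cell type markers, with counts by the same threshold over all genes. As with the 9, these counts rest on particular libraries and settings: over all 14 lists together, 45 genes were called after TAC on the control diet, and none without control diet TAC replicate 3 or control diet sham replicate 1 or 2. On the BCAA-free diet 33 were called, and 5 without BCAA-free TAC replicate 3, 6 and 7 without BCAA-free sham replicate 1 or 2 and 15 without BCAA-free TAC replicate 2. On that diet 3 were called with GC and length trends removed and 2 in a fit of all 12 libraries. For the interaction 22 were called, 7 and 11 without BCAA-free TAC replicate 3 or 1, 9 and 8 without BCAA-free sham replicate 2 or 1, 43 without control diet TAC replicate 1, and 10 with GC and length trends removed. Of 29 tested genes for other matricellular and secreted matrix-regulating proteins, 6 rose after TAC on the BCAA-free diet and none fell (median log2 fold change 0.28). On the control diet 8 rose and none fell (median 0.87), 11 without control diet TAC replicate 2. On the control diet they included Aspn (1.77 ± 0.29), which encodes asporin, and Fstl1 (1.77 ± 0.33), which encodes a secreted follistatin-like protein. The basement membrane linker gene Nid1 (0.93 ± 0.14) and the fibulin gene Fbln2 (0.87 ± 0.16) rose as well. On the BCAA-free diet Pcolce, an enhancer of procollagen processing (0.47 ± 0.09), Emilin1 (0.42 ± 0.09), Tnxb (0.46 ± 0.10) and again Fbln2 (0.32 ± 0.07) rose. Between the diets after TAC 10 fell and 3 rose (median -0.64), among them Nid1 (-1.17 ± 0.12), Sparcl1 (-0.64 ± 0.08) and Smoc2 (-0.59 ± 0.08) as falls and the testican gene Spock2 as a rise (1.63 ± 0.12). In sham hearts none of the 29 was called, and Nov came nearest (0.87 ± 0.18, adjusted p = 0.0536). The interaction was called for Nid1 (-0.91 ± 0.16, adjusted p = 0.0114) and Aspn (-1.66 ± 0.38, adjusted p = 0.0259), and for 5 genes of the list without control diet TAC replicate 2.

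Receptors of the members were called only lower after TAC on the BCAA-free diet and only higher on the control diet. Of the integrins, CD36, CD44, Toll-like and other receptors tested, none of 22 rose and 4 fell after TAC on the BCAA-free diet (median -0.14). On the control diet 8 of 23 rose and none fell (median 0.67), 3 without control diet TAC replicate 2. The rises on the control diet included Itga9 (1.10 ± 0.15), a tenascin C and osteopontin receptor subunit, Itgb3 (1.41 ± 0.20), which pairs with Itgav to bind periostin and osteopontin, Tlr4 (0.98 ± 0.15) and Itga5 (0.76 ± 0.14). The falls on the BCAA-free diet were Itga1 (-0.55 ± 0.11), Cd36 (-0.32 ± 0.07), a thrombospondin receptor and fatty acid transporter, Egfr (-0.50 ± 0.13) and Itgav (-0.34 ± 0.09). Between the diets after TAC 13 of 23 fell and 1 rose, with Itga9 (-1.48 ± 0.14), Itga1 (-1.38 ± 0.11), Tlr4 (-1.32 ± 0.11) and Egfr (-1.25 ± 0.15) the falls of smallest p. The interaction was called, and negative, for 9 of 22 receptors, among them Tlr4 (-1.37 ± 0.19, adjusted p = 0.00495), Itgb3 (-1.46 ± 0.27, adjusted p = 0.0125) and Itgav (-1.03 ± 0.21, adjusted p = 0.0175). After sham surgery Itga1 fell on the BCAA-free diet (-0.68 ± 0.11).

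The list of genes of activated fibroblasts and myofibroblasts shares no gene with the 9. It shares Comp, Fn1 and Mfap4 with the list of other matricellular proteins and Acta2, Tagln and Cnn1 with that of smooth muscle. Notch3, Eng and Nppa are shared between further lists. Of 24 tested, 2 rose after TAC on the BCAA-free diet (median 0.35), namely the protease inhibitor gene Timp1 (0.96 ± 0.25) and Ddah1 (0.51 ± 0.14). On the control diet 14 rose and none fell (median 1.94), among them Timp1 (2.59 ± 0.43), the fibrillar collagen gene Col3a1 (2.16 ± 0.36) and the transcription factor gene Runx1 (1.64 ± 0.32). After control diet TAC replicate 2 was left out the count on the control diet was 16. Between the diets after TAC 15 fell and none rose (median -1.78), with the metalloprotease gene Adam12 (-3.06 ± 0.43), Col3a1 (-2.78 ± 0.46), the collagen cross-linking enzyme gene Loxl2 (-1.81 ± 0.36) and Runx1 (-1.75 ± 0.33). The interaction was called for Col8a1 (-2.14 ± 0.58, adjusted p = 0.0499), and for 6 genes of the list without control diet TAC replicate 2. In sham hearts Col3a1 was the 1 gene of the list that fell on the BCAA-free diet (-1.42 ± 0.15, adjusted p = 0.00261).

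Most genes of TGF-beta signalling were not called after TAC on either diet. After TAC 5 of 20 rose on the BCAA-free diet (median 0.15) and 4 of 20 on the control diet (median 0.56), 2 without control diet TAC replicate 2. The rises on the BCAA-free diet included Bmp1 (0.50 ± 0.07), Ltbp4 (0.47 ± 0.08) and Ltbp3 (0.44 ± 0.08). The activin subunit gene Inhba (1.52 ± 0.28), Ltbp4 (0.77 ± 0.15) and the receptor genes Tgfbr1 (0.77 ± 0.18) and Tgfbr2 (0.60 ± 0.14) rose on the control diet. Between the diets after TAC 8 fell and 3 rose (median -0.31), with Skil (-0.92 ± 0.14), Tgfbr1 (-0.82 ± 0.16) and Smad3 (-0.64 ± 0.11) falling and Eng rising (0.43 ± 0.07). The interaction was called for Tgfbr1 (-1.04 ± 0.20, adjusted p = 0.0145) and Inhba (-1.39 ± 0.36, adjusted p = 0.0343).

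**Figure D4:**
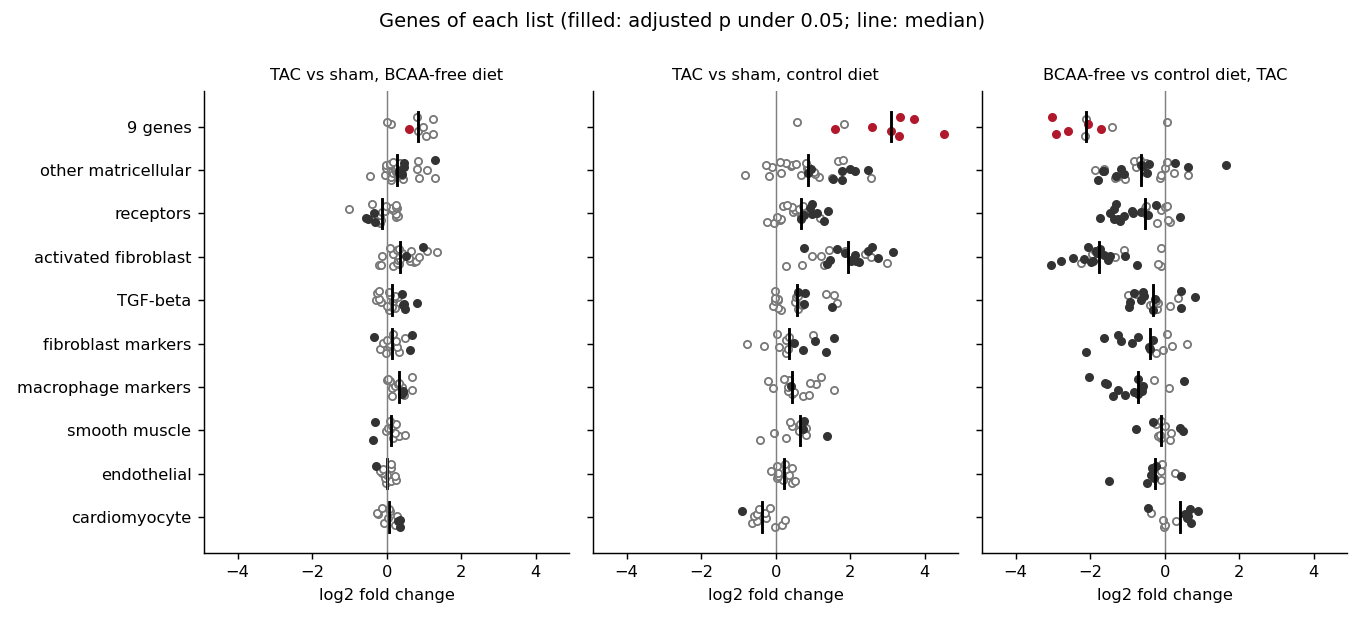
Log2 fold changes (horizontal axis) of the 9 genes and of the genes of 9 lists in 3 comparisons, 1 point per gene, filled where the adjusted p was under 0.05, with a line at each median. The 9 genes have the highest median for TAC on the control diet (3.08), with 1.94 for genes of activated fibroblasts and 0.35 for fibroblast markers. Genes and lists were chosen with earlier results of these data known, so this order is only a description.

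Markers of the cells that could make these RNAs were read beside the members. The 14 fibroblast markers summed to 2235 to 2504 RPM in BCAA-free TAC, 2854 to 3152 in control diet TAC, 2212 to 2316 in BCAA-free sham and 2395 to 2687 in control diet sham hearts. This sum was highest in control diet TAC, without overlap with the other groups, and it spread less than the sum of the 9 genes. Single markers such as Col15a1 differed more than the sum. After TAC 2 rose and 1 fell on the BCAA-free diet (median 0.13), and 5 rose on the control diet (median 0.35), 3 without control diet TAC replicate 2. Pi16 (0.69 ± 0.13) and Cygb (0.62 ± 0.09) rose and Pdgfra (-0.35 ± 0.09) fell on the BCAA-free diet, while Col15a1 (1.35 ± 0.22) and Lum (1.07 ± 0.21) were among the rises on the control diet. In BCAA-free against control diet TAC hearts 9 fell (median -0.41), among them Col15a1 (-2.11 ± 0.25), Lamb1 (-0.87 ± 0.08) and Pdgfra (-0.71 ± 0.07). In sham hearts Col15a1 (-1.10 ± 0.12), Pi16 (-0.95 ± 0.13) and Mmp2 (-0.55 ± 0.10) fell on the BCAA-free diet. All 14 passed the filter on low values, and the part of fibroblast number in the members' values was not tested.

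The 15 macrophage markers summed to 209 to 251 RPM in BCAA-free TAC, 302 to 359 in control diet TAC, 185 to 191 in BCAA-free sham and 227 to 318 in control diet sham hearts. The complement genes C1qa (0.41 ± 0.10), C1qb (0.44 ± 0.12) and C1qc (0.43 ± 0.09) rose after TAC on the BCAA-free diet, and Csf1r (0.42 ± 0.09) alone rose on the control diet, where none did without control diet TAC replicate 2. In BCAA-free against control diet TAC hearts 12 fell and 1 rose (median -0.72), among them Ms4a7 (-2.05 ± 0.28), Adgre1 (-1.38 ± 0.19) and Mrc1 (-0.71 ± 0.09). Of 9 further genes known from Spp1-expressing macrophages, 5 fell and 1 rose in that comparison, with Ctsk (-1.29 ± 0.33), Hmox1 (-0.68 ± 0.15) and Cd9 (-0.53 ± 0.11) among the falls. These 9 genes summed to 4104 to 4360 RPM in BCAA-free TAC and 2892 to 3643 in control diet TAC hearts. They summed to 5457 to 5786 in BCAA-free sham and 3660 to 4205 in control diet sham hearts, far above the macrophage markers. Which cells made their RNA was not tested. After TAC on the BCAA-free diet Cd63 rose (0.27 ± 0.07) and Lpl fell (-0.42 ± 0.07), while control diet TAC hearts had a rise of Ctsk (1.63 ± 0.33) over sham. In sham hearts no macrophage marker was called, with 13 of 15 lower on the BCAA-free diet (median -0.67). The part of macrophage number in the values of Spp1 was not tested.

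Smooth muscle and pericyte markers gave 0 rises and 2 falls of 12 after TAC on the BCAA-free diet (Rgs5 -0.30 ± 0.08, Abcc9 -0.38 ± 0.10). On the control diet 3 rose, Cnn1 (1.36 ± 0.28), Tagln (0.77 ± 0.16) and Mcam (0.73 ± 0.13), of which Cnn1 and Tagln were also counted among the genes of activated fibroblasts. In sham hearts the contractile genes Lmod1 (1.12 ± 0.19) and Myh11 (1.18 ± 0.20) were higher on the BCAA-free diet. Of 12 endothelial markers 1 fell after TAC on the BCAA-free diet (Tek, -0.28 ± 0.08) and none was called on the control diet. In BCAA-free TAC hearts 7 were lower than in control diet TAC hearts and 1 was higher, and Cldn5 had the smallest p (-1.49 ± 0.17). Cardiomyocyte markers went the other way, with 6 of 12 higher and 1 lower in BCAA-free than in control diet TAC hearts (median 0.42), among them Tnni3 (0.89 ± 0.15) and Tnnt2 (0.68 ± 0.11). After TAC 3 of the 12 rose on the BCAA-free diet and 1, Tnni3, fell on the control diet (-0.89 ± 0.19). Of 6 atrial markers Sln (1.17 ± 0.31) and Myl7 (1.26 ± 0.33) were higher in BCAA-free than in control diet TAC hearts, and no atrial marker was called in the comparisons of TAC with sham. The epicardial marker Wt1 (-0.72 ± 0.11) and the T cell marker Cd4 (-0.80 ± 0.24) were lower in BCAA-free TAC hearts. The part of these cell types in the members' values was not tested.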

How the data were processed

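The authors deposited 4 tables, each for 6 libraries and 1 comparison, with a column of normalized values per library and their own log2 fold changes, p-values and adjusted p-values. Per the file headers and values, the deposited signal is a gene's read count divided by a size factor set within each table, here called normalized counts. Dividing by the step of each column gave whole reads (within 0.01) for 100% of values. Trimmomatic 0.36, STAR 2.5.2b, Subread 1.5.2, DESeq2 and the build GRCm38 stand in the submitters' processing notes, without their roles. No column of per-sample values was left unused. Because tables were scaled separately, values were compared only within a table, except in the interaction, for which the 2 tables of TAC against sham were joined on shared genes. The comparisons share groups of samples, so their results are not independent of each other.

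Genes whose mean value reached 10 were tested on log2(value + 1) with limma 3.58.1 (mean trend, robust, statmod 1.5.0, R 4.3.3), and Benjamini-Hochberg adjustment ran over every tested gene. All tests were two-sided. Scripts were first tested on simulated data. Alternatives used other scalings, filters, a pseudocount of 10, each replicate left out, DESeq2 1.42.0, edgeR 4.0.16 and limma-voom on recovered reads, 1 fit of all 12 libraries, a replicate block, and removal of GC and length trends. No alternative was added after the files were read. Levels across all 12 libraries used the reads recovered from the joined tables, and 99.8% of gene identifiers matched GENCODE M21, which gave exon lengths and positions.

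The members and the gene lists were chosen with earlier results of these data known. Named were all 9 members, from each list and comparison the called genes of smallest p (at most 4, or the 1 of smallest p where none was called), and the 8 genes with a mean of at least 100 most like the members. Of these, the text gives a selection for the lists, and 1 gene that the rule names is not reported here. The main fits did not pair samples by replicate number.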

Additional observations from a re-analysis of the deposited data

How the results depend on the processing

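Of the 9 genes, 1 was called after TAC on the BCAA-free diet, 7 after TAC on the control diet, 1 of 8 for the diet in sham, 5 for the diet in TAC and none for the interaction. The replicate block gave 4 after TAC on the control diet, 2 for the diet in sham and 2 for the interaction, with counts within 1.5 times elsewhere. Over all genes the block called 545 higher and 277 lower, 62 and 81, and 908 and 676 in these 3 comparisons. No pairing by replicate number was seen: same-numbered libraries correlated at -0.18 to 0.081, and 1 of 12 matched its own number best. With 3 libraries per group this check cannot settle whether samples were paired. DESeq2 gave 4 after TAC on the BCAA-free diet, 2 for the diet in sham, 8 for the diet in TAC and 5 for the interaction. Over all genes DESeq2 called 753 higher and 700 lower, 257 and 276, 2652 and 2939, and 1187 and 970, in the same order. Limma-voom gave 3 after TAC on the control diet and 0 for the diet in sham, with 225 higher and 96 lower, and 25 and 39, over all genes. A single fit of all 12 libraries gave 0 after TAC on the BCAA-free diet, 0 for the diet in sham and 8 for the diet in TAC. Over all genes that fit called 46 higher and 8 lower, 169 and 178, and 2287 and 2482. A mean of at least 100 gave 0 for the diet in sham and 1 for the interaction, library totals alone gave 1 for the interaction, and removal of GC and length trends gave 2 for the diet in sham and 2 for the diet in TAC. Over all genes the mean of at least 100 called 19 higher and 33 lower for the diet in sham. For the interaction it called 866 and 643, and library totals alone called 386 and 1462. With 1 library left out the count was 0 to 3 after TAC on the BCAA-free diet, 0 to 7 after TAC on the control diet, 0 to 2 for the diet in sham, 2 to 6 for the diet in TAC and 0 to 2 for the interaction. Over all genes the calls then ran from 41 higher and 7 lower to 593 and 591 after TAC on the BCAA-free diet. After TAC on the control diet they ran from 0 and 0 to 720 and 371. For the diet in sham the range was 1 and 5 to 208 and 267. It was 1554 and 1815 to 2571 and 2698 for the diet in TAC, and 127 and 89 to 975 and 758 for the interaction. Directions of the members held for all 153 values under alternatives after TAC on the control diet and all 196 of the interaction. The sign turned for Thbs2 after TAC on the BCAA-free diet with library totals (-0.011) and without BCAA-free sham replicate 3 (-0.12), BCAA-free TAC replicate 1 (-0.0033) or replicate 2 (-0.067), with up to 0.10 when 1 library was left out, and for Thbs1 without BCAA-free TAC replicate 3 (-0.0020, with up to 0.32). For the diet in sham it turned for Spp1 without control diet sham replicate 1 (-0.085) or BCAA-free sham replicate 1 (-0.010, with up to 0.46), and for Cilp without BCAA-free sham replicate 2 (-0.017, with up to 0.20). For the diet in TAC it turned for Thbs2 with library totals (-0.065) and without control diet TAC replicate 3 (-0.12) or BCAA-free TAC replicate 2 (-0.014, with up to 0.27). None of these values passed the threshold, and the cause was not tested. Removal of GC and length trends changed the calls over all genes to 77 higher and 8 lower after TAC on the BCAA-free diet (524 and 453 without it), 638 and 845 after TAC on the control diet, 160 and 214 for the diet in sham (38 and 57 without it), 2781 and 1928 for the diet in TAC, and 498 and 140 for the interaction. Few reads limit Cthrc1 in sham hearts.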
